A study of Mus musculus with 6 samples.

Results

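Interferon response genes are the genes that cells transcribe when interferons bind their receptors. This account follows a list of 37 of them in mouse mammary gland cells. A member was measured by a non-control array probe carrying its symbol or an older synonym, and where several probes did so, by the probe with the highest mean sample signal over the 6 arrays. A probe was found for 36 of the 37 genes, among 27670 genes that the array measured in all. No probe carries the name of Xaf1, a pro-apoptotic interferon-induced gene, and it was not analysed here. The study measured RNA on 6 Agilent 2-colour arrays, 1 for each of 6 groups: het P4, WT P4, het P5, WT P5, het MEC and WT MEC. The het mice are labelled as heterozygous for a knockout of ΔNp63, the p63 isoforms that lack the N-terminal transactivation domain, and the WT mice as wild type. All groups came from virgin mice of the strain given as C57/B6. P4 is the CD24+CD29hi population, enriched for mammary stem cells. P5 is the CD24+CD29lo population, enriched for luminal progenitors. MEC are total mammary epithelial cells, taken without enrichment. How many mice went into an array, their age and the design of the knockout allele are not given in the sources used here. The sample RNA carried Cy5, and a reference RNA mixed from 11 mouse cell lines carried Cy3.

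Interferons signal through paired receptors to Janus kinases. Type I and type III interferons lead to a complex that contains STAT2 and IRF9 and binds the interferon-stimulated response element (ISRE) of target promoters. Type II interferon acts on promoters through the gamma-activated site (GAS). The targets include sensors of viral nucleic acids, proteins that block viral replication, GTPases that attack intracellular pathogens, and the immunoproteasome and peptide transporter that load MHC class I. Many are also transcribed at a low level in tissue that has met no infection, and that level differs between cell types.

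The promoters of the members are shown because they carry the elements that these factors read. RefSeq promoter windows on GRCm38.p6, from 250 bases before to 50 bases after the start, were found for 30 members. The letters GAAANNGAAA, a core form of the ISRE searched on both strands, occurred in the windows of 16 of those 30 members (53.3%), against 3.99% of all 27025 genes with a window. The letters TTCNNNGAA, a core form of the GAS that reads the same on both strands, occurred in 10 of the 30 members (33.3%), against 9.55% of all genes. A match of letters is a description and not a shown binding site. In the stretches that follow, capitals mark GAAANNGAAA or its reverse complement TTTCNNTTTC for the genes from Ifit1 to Gbp2b, and TTCNNNGAA for Psmb8 and Ifi202b.
Ifit1: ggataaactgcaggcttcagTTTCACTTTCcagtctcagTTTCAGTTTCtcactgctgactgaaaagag
Ifit3: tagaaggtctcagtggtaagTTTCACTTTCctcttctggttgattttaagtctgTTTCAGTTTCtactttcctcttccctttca
Isg15: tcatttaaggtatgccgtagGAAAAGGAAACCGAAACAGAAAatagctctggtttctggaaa
Rsad2: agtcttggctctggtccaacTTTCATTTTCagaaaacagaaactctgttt
Bst2: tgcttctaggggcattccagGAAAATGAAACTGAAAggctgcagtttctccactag
Igtp: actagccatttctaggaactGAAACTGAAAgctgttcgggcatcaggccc
Gbp2b: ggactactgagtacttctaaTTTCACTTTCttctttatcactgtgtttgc
Psmb8: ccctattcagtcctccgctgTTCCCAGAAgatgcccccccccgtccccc
Ifi202b: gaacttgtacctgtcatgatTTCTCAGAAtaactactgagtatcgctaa
These stretches lie at chr19:34640765-34640833 on the plus strand for Ifit1, chr19:34583353-34583436 on the plus strand for Ifit3, chr4:156200855-156200916 on the minus strand for Isg15, and chr12:26456543-26456592 on the minus strand for Rsad2. The stretch of Bst2 lies at chr8:71537567-71537622 on the minus strand, that of Igtp at chr11:58199502-58199551 on the plus strand, and that of Gbp2b at chr3:142594690-142594739 on the plus strand. Psmb8 is shown at chr17:34198078-34198126 on the plus strand and Ifi202b at chr1:173982964-173983012 on the minus strand. Ifit1 and Ifit3 each hold the ISRE letters at 2 places, and Isg15 holds 3 overlapping copies. In Bst2 a GAS match overlaps the ISRE letters, and Igtp has a GAS match just before its ISRE letters. Neither set of letters was found in the windows of Psmb9 and Tap1, which share 275 bases on opposite strands of chromosome 17. The 225 bases between the starts of these divergent genes, at chr17:34187331-34187555 on the plus strand, are given because both genes are among the members that separate P4 from P5.
Psmb9 to Tap1: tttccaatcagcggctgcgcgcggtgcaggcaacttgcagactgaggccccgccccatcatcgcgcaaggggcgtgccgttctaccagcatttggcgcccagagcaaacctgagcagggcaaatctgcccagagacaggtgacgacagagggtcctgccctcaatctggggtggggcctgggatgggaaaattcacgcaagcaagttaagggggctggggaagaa

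Median Cy5 signal per array was 113 to 188 units, or 3.24 to 5.22 times its median local background, and 74.3% to 89.8% of probes were well above background in Cy5. All 36 member probes were well above background in both channels on all 6 arrays, and none was saturated. Values below are log2 ratios of sample over reference RNA, so they compare arrays for 1 gene and not genes with each other. The copies of 245 probes printed 10 times on each array had an SD of 0.094 on this scale, which gives 0.13 for a difference between 2 arrays. That is the spread between spots within an array, without labelling, hybridisation, slide or animal. Each group had 1 array. Population differences were therefore fitted with limma over the 6 arrays, with population and genotype as terms, 2 residual degrees of freedom and Benjamini-Hochberg adjustment over the 24664 genes that passed a filter on dim probes. All 36 members passed it. P-values measure the spread between these arrays, which limma pools in part over all genes, and not the spread between animals. P4 and P5 were hybridised on slide 1 and MEC on slide 2, so the slide and the step from MEC to a sorted population cannot be told apart. The het arrays followed the WT arrays in position on either slide, which ties position to genotype as well, and these too cannot be told apart. The probe for Trp63, which encodes p63, gave 5.49 in het P4 and 5.99 in WT P4, 0.89 in het P5 and 0.54 in WT P5, and 2.67 in het MEC and 3.71 in WT MEC. Which p63 isoforms that probe reports is not given in the files. Of the markers listed for each lineage, 12 of 12 basal markers were higher and 11 of 13 luminal markers lower in P4 than in P5. Of 14 fibroblast markers, 5 were higher in P4 than in P5.

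The comparison of P4 with P5 asks how the stem cell-enriched population differs from the luminal progenitor-enriched one. All 3 antigen-processing members, 2 of 5 sensors and 1 of 5 transcription factors were lower in P4, while 14 of 16 antiviral effectors and all 5 GTPases gave no call. Of the 36 members, 9 were called at an adjusted p below 0.05, against 15% of all genes tested. Only Ifitm3 was higher (7.55% of all genes were higher), and 8 were lower (7.46% of all genes). The members' median difference was -0.04, against 0.07 over all genes. The plot of the members on each array shows the wide gap of Psmb8, Psmb9 and Ifih1.

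**Figure D1:**
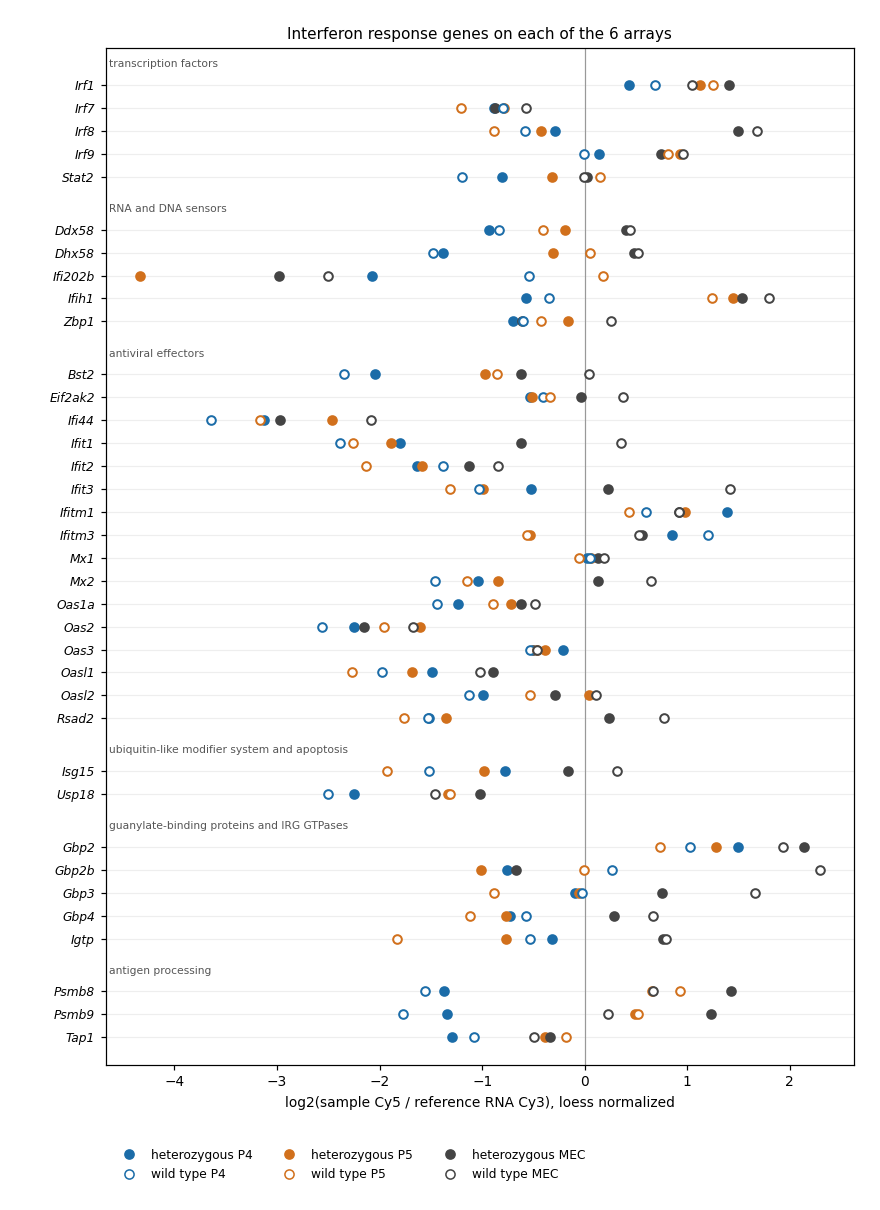
Log2 ratio of sample over reference RNA (x axis) of the 36 measured members, grouped by role (rows), on each of the 6 arrays, with 1 point per array, filled for het and open for WT. Psmb8 lies at -1.37 and -1.56 in het and WT P4 and above 0 on the other 4 arrays, and Ifi202b lies at -4.34 in het P5 against 0.18 in WT P5.

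The 3 antigen-processing members were lower in P4 than in P5. Psmb8, a catalytic subunit of the immunoproteasome, which cuts proteins into peptides for MHC class I, had a log2 ratio of -1.37 in het P4, -1.56 in WT P4, 0.66 in het P5, 0.93 in WT P5, 1.43 in het MEC and 0.67 in WT MEC. Both P4 arrays lay below all the others, and P5 overlapped MEC. The difference of P4 from P5 was -2.26 ± 0.26 (SE, limma adjusted p = 0.0085). Psmb9, another catalytic subunit of that proteasome, had -1.34 in het P4, -1.77 in WT P4, 0.49 in het P5, 0.52 in WT P5, 1.23 in het MEC and 0.23 in WT MEC. Its P4 arrays again stood alone at the low end, with a difference from P5 of -2.06 ± 0.26 (limma adjusted p = 0.0109). Tap1, a subunit of the peptide transporter, had -1.29 in het P4, -1.08 in WT P4, -0.39 in het P5, -0.18 in WT P5, -0.34 in het MEC and -0.49 in WT MEC. It differed by -0.90 ± 0.15 between P4 and P5 (limma adjusted p = 0.023), and P5 and MEC overlapped. With local backgrounds as given, that difference was -0.53 and was not called (limma adjusted p = 0.186). Psmb9 and Tap1 are the divergent pair whose shared upstream sequence is printed above. The remaining genes listed for the class I pathway behaved alike in part: 4 of 12 were lower in P4 than in P5 and none higher, with a median difference of -0.98.

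Among the nucleic acid sensors, both helicases of the MDA5 and LGP2 type were lower in P4. Ifih1, which encodes MDA5, a sensor of long double-stranded RNA, had -0.57 in het P4, -0.35 in WT P4, 1.45 in het P5, 1.24 in WT P5, 1.53 in het MEC and 1.80 in WT MEC. The P4 arrays were the only ones below the reference RNA, and P4 differed from P5 by -1.81 ± 0.17 (limma adjusted p = 0.00544). The dimmer probe of Ifih1, well above background on 4 arrays, gave a difference of -0.44. Dhx58, which encodes LGP2, a regulator of those sensors, had -1.38 in het P4, -1.48 in WT P4, -0.31 in het P5, 0.05 in WT P5, 0.48 in het MEC and 0.52 in WT MEC. The 3 populations were ordered without overlap, and P4 differed from P5 by -1.30 ± 0.16 (limma adjusted p = 0.0106), or by -0.89 with local backgrounds as given, which did not pass the threshold (limma adjusted p = 0.0573). Ddx58, which encodes the sensor RIG-I, had -0.93 in het P4, -0.84 in WT P4, -0.19 in het P5, -0.41 in WT P5, 0.40 in het MEC and 0.44 in WT MEC. Its order was that of Dhx58, but its difference of -0.59 between P4 and P5 did not pass the threshold (limma adjusted p = 0.0565). Zbp1, a sensor of Z-form nucleic acids, ranged from -0.70 in het P4 to 0.26 in WT MEC and was called in none of the 3 population comparisons.

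Of the transcription factors, Irf9 was called. Irf9, the DNA-binding subunit of the complex that reads the ISRE, had 0.14 in het P4, -0.01 in WT P4, 0.93 in het P5, 0.81 in WT P5, 0.74 in het MEC and 0.96 in WT MEC. P4 lay below every other array and differed from P5 by -0.80 ± 0.15 (limma adjusted p = 0.0305). The dimmer probe of Irf9, well above background on 4 arrays, gave a difference of -0.29. On that probe WT P4, at -0.10, lay above het MEC at -0.12 and WT MEC at -0.15. Stat2, a partner of IRF9 in that complex, had -0.81 in het P4, -1.20 in WT P4, -0.32 in het P5, 0.15 in WT P5, 0.02 in het MEC and -0.01 in WT MEC. P4 was again lowest, at -0.92 ± 0.23 against P5, without passing the threshold (limma adjusted p = 0.0599). Irf1, an early response factor of interferon gamma, ranged from 0.43 in het P4 to 1.41 in het MEC, and Irf7, which amplifies type I interferon production, from -1.21 in WT P5 to -0.57 in WT MEC. Neither was called in any of the 3 population comparisons. Upstream in the pathway, 2 of 9 receptor and kinase genes were lower in P4 than in P5 and none was higher. Of 10 listed negative regulators, 1 was higher and 2 were lower.

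Usp18 and Bst2 were lower in P4, and Ifitm3 was higher. Usp18, the protease that removes ISG15 from proteins and dampens the type I receptor, had -2.25 in het P4, -2.50 in WT P4, -1.33 in het P5, -1.31 in WT P5, -1.02 in het MEC and -1.46 in WT MEC. P5 and MEC overlapped above P4, and the difference of P4 from P5 was -1.05 ± 0.16 (limma adjusted p = 0.0172). Bst2, or tetherin, which holds budding virions at the cell surface, had -2.04 in het P4, -2.35 in WT P4, -0.97 in het P5, -0.86 in WT P5, -0.62 in het MEC and 0.04 in WT MEC. The order from P4 to MEC was free of overlap, with a difference between P4 and P5 of -1.28 ± 0.25 (limma adjusted p = 0.0314). Ifitm3, a membrane protein that blocks the entry of viruses, had 0.85 in het P4, 1.20 in WT P4, -0.53 in het P5, -0.56 in WT P5, 0.56 in het MEC and 0.53 in WT MEC. Here P4 was the highest population and P5 the lowest, a difference of 1.57 ± 0.16 (limma adjusted p = 0.00642). The promoter windows of Bst2 and Ifitm3 both hold the ISRE letters, before the start in Bst2 and after it in Ifitm3. Their part in the differences between P4 and P5 was not tested.

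The remaining antiviral effectors gave no call between P4 and P5, with differences from -0.82 for Oasl2 to 0.38 for Ifit3. Among 43 other interferon-induced genes tested, 10 were lower in P4 and none higher, with a median of -0.10. The 5 related genes farthest apart among those called were Iigp1 (-2.18), a GTPase against intracellular pathogens, Tap2 (-2.14), the partner of Tap1, Slfn2 (-2.02), Ptpn6 (-1.76), a phosphatase that restrains cytokine signalling, and Isg20 (-1.66), an RNA exonuclease, all lower in P4. Calls were lost from every fitted comparison without het P4 or without WT P4, including P5 against MEC, which uses no P4 array. The members' median for P5 against MEC stayed at -0.46, so there the estimated error changed and not the difference. Between P4 and P5 the members' median was -0.32 without het P4 and 0.02 without WT P4. Without WT P5 the members called numbered 5 (4.44% of all genes), and without either MEC array 17 (28.7% of all genes), of which 15 were lower.

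**Figure D2:**
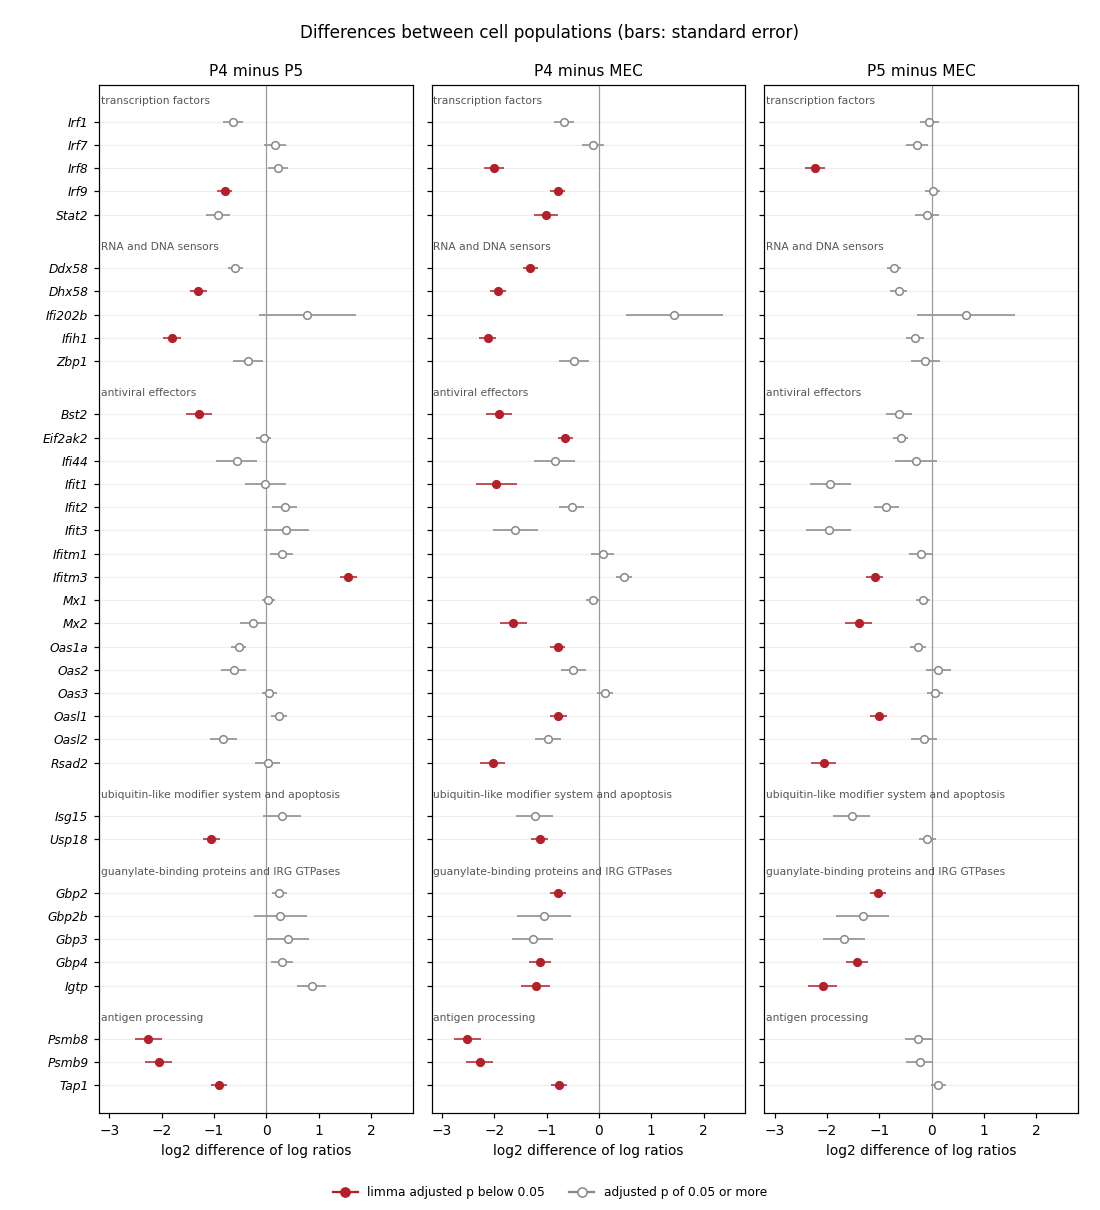
Log2 difference of log ratios (x axes) for each member between P4 and P5, P4 and MEC, and P5 and MEC, with bars for the standard error of the limma fit and filled points for an adjusted p below 0.05. Called members are lower in P4 than in P5 except Ifitm3, which is 1.57 higher in P4. Against MEC every called member is lower in the sorted population.

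Against MEC, 20 of the 36 members were lower in P4 and 8 were lower in P5, and the other members gave no call. The 20 called in P4 stand against 17.9% of all genes in either direction and 8.46% lower. Their median difference was -0.99, and that of all genes 0.05. The 8 called in P5 stand against 6.33% of all genes in either direction and 4.25% lower, and without WT P5 1 member was called. The median difference in P5 was -0.46, and that of all genes 0.02. Psmb8, Psmb9, Irf1, Irf9, Usp18, Stat2 and Tap1 lay no more than 0.25 from MEC in P5. These comparisons share the MEC arrays, and P4 against MEC shares its P4 arrays with P4 against P5. Their calls are therefore not independent of each other. The plot of population differences shows which members were called on each side.

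The members farthest below MEC in P4 were Psmb8, Psmb9 and Ifih1, already described as low in P4 against P5. Next came Rsad2 (-2.03), Irf8 (-2.01) and Ifit1 (-1.96), which were not called between P4 and P5. Psmb8 differed from MEC by -2.52 ± 0.26 (limma adjusted p = 0.00879), Psmb9 by -2.28 ± 0.26 (limma adjusted p = 0.0103) and Ifih1 by -2.13 ± 0.17 (limma adjusted p = 0.00679). In P5 the same members lay within 0.32 of MEC and were not called. Dhx58 (-1.93), Bst2 (-1.91), Ddx58 (-1.31), Usp18 (-1.13), Stat2 (-1.01), Irf9 (-0.79) and Tap1 (-0.77) were also called lower in P4 than in MEC. None of these was called between P5 and MEC, where Ddx58 differed by -0.72 (limma adjusted p = 0.0549).

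Irf8, Rsad2 and Mx2 were called lower than MEC in each sorted population. Irf8, a factor of myeloid and lymphoid development, had -0.29 in het P4, -0.58 in WT P4, -0.43 in het P5, -0.88 in WT P5, 1.49 in het MEC and 1.68 in WT MEC. Both MEC arrays lay far above all the sorted arrays, with differences of -2.01 ± 0.19 for P4 (limma adjusted p = 0.00826) and -2.23 ± 0.19 for P5 (limma adjusted p = 0.0127). The dimmer Irf8 probe varied little, from -0.15 in WT P5 to 0.30 in WT MEC. Rsad2, or viperin, an enzyme that makes a chain-terminating nucleotide, had -1.52 in het P4, -1.53 in WT P4, -1.35 in het P5, -1.76 in WT P5, 0.24 in het MEC and 0.77 in WT MEC. The sorted populations overlapped below MEC, and P4 differed from it by -2.03 ± 0.24 (limma adjusted p = 0.0112) and P5 by -2.06 ± 0.24 (limma adjusted p = 0.0192). The 2 dimmer Rsad2 probes ranged only from -0.53 to 0.43, and on 1 of them MEC overlapped the sorted populations. Mx2, a dynamin-like antiviral GTPase, had -1.04 in het P4, -1.46 in WT P4, -0.85 in het P5, -1.15 in WT P5, 0.13 in het MEC and 0.65 in WT MEC. MEC was above all sorted arrays, by a difference of -1.64 ± 0.26 for P4 (limma adjusted p = 0.0195) and of -1.39 ± 0.26 for P5 (limma adjusted p = 0.0476).

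Of the 5 GTPases that defend against intracellular pathogens, 3 were called lower than MEC in P4 and 3 in P5. Igtp, an immunity-related GTPase, had -0.32 in het P4, -0.53 in WT P4, -0.77 in het P5, -1.83 in WT P5, 0.76 in het MEC and 0.79 in WT MEC. It differed from MEC by -1.21 ± 0.28 in P4 (limma adjusted p = 0.0458) and by -2.08 ± 0.28 in P5 (limma adjusted p = 0.0244), and WT P5 was the lowest array. Gbp2, a guanylate-binding protein, had 1.49 in het P4, 1.03 in WT P4, 1.28 in het P5, 0.73 in WT P5, 2.14 in het MEC and 1.93 in WT MEC. P4 and P5 overlapped below MEC, with differences of -0.78 and -1.03, both called. Gbp4, carried on the array under the older name Mpa2, had -0.73 in het P4, -0.57 in WT P4, -0.77 in het P5, -1.12 in WT P5, 0.29 in het MEC and 0.67 in WT MEC. It too was called against MEC in both, at -1.13 in P4 and -1.43 in P5, and in neither with local backgrounds as given (-0.68, limma adjusted p = 0.0995, and -1.11, limma adjusted p = 0.0513). Gbp3, which the array names Gbp4, ranged from -0.88 in WT P5 to 1.66 in WT MEC and was not called, at -1.27 ± 0.40 for P4 (limma adjusted p = 0.0894) and -1.67 ± 0.40 for P5 (limma adjusted p = 0.0773). Gbp2b was not called either (limma adjusted p = 0.213 for P4 and 0.197 for P5), and its het MEC array, at -0.67, lay below WT P4 at 0.27 and WT P5 at -0.01.

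Of the 16 antiviral effectors, 7 were lower than MEC in P4 and 4 in P5. Ifit1, which binds foreign RNA caps, had -1.80 in het P4, -2.39 in WT P4, -1.89 in het P5, -2.26 in WT P5, -0.62 in het MEC and 0.35 in WT MEC. MEC lay above both sorted populations, which overlapped, but only P4 passed the threshold, at -1.96 ± 0.39 (limma adjusted p = 0.0329), while P5 was at -1.94 ± 0.39 (limma adjusted p = 0.056). Oasl1, a relative of the oligoadenylate synthetases, had -1.49 in het P4, -1.98 in WT P4, -1.68 in het P5, -2.27 in WT P5, -0.89 in het MEC and -1.02 in WT MEC, and was called lower in P4 (-0.78) and in P5 (-1.01). Its MEC arrays were the highest. Oas1a, an oligoadenylate synthetase that activates RNase L, had -1.24 in het P4, -1.44 in WT P4, -0.72 in het P5, -0.89 in WT P5, -0.62 in het MEC and -0.48 in WT MEC, and was called only in P4 (-0.79). Eif2ak2, the kinase PKR that halts translation, had -0.53 in het P4, -0.41 in WT P4, -0.51 in het P5, -0.34 in WT P5, -0.04 in het MEC and 0.37 in WT MEC, and was called in P4 (-0.64) but not in P5 (-0.59, limma adjusted p = 0.0776). Both sorted populations lay below MEC for this gene. Ifitm3 was called lower in P5 than in MEC (-1.09) and not called in P4 (0.48, limma adjusted p = 0.0979).

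Members with no call against MEC included Ifit3 and Isg15, the ubiquitin-like modifier, whose MEC arrays lay above every sorted array. The array file places the Isg15 probe on chromosome 17 of mm7, whereas RefSeq has the gene on chromosome 4. Ifit3 had differences of -1.60 ± 0.43 in P4 (limma adjusted p = 0.0618) and -1.97 ± 0.43 in P5 (limma adjusted p = 0.0645), and Isg15 of -1.23 ± 0.36 in P4 (limma adjusted p = 0.0759) and -1.53 ± 0.36 in P5 (limma adjusted p = 0.0753). Ifit2, Oas2, Oas3, Oasl2, Ifi44, Mx1 and Ifitm1 were not called in any of the 3 population comparisons. Mx1 was the flattest member, with log2 ratios from -0.06 in WT P5 to 0.19 in WT MEC.

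Among 43 other interferon-induced genes, 25 were lower and none higher in P4 than in MEC (median -1.16), and 11 were lower and none higher in P5 than in MEC (median -0.55). The called ones farthest from MEC were Iigp1 (-3.31), Ifi204 (-2.71), Cxcl9 (-2.48), Cxcl10 (-2.47) and Trim30a (-2.47) in P4, and Ifi204 (-2.98), Cxcl10 (-2.82), Cxcl9 (-2.60), Ifi47 (-2.45) and Trim30a (-2.24) in P5. Cxcl9 and Cxcl10 are chemokines that attract T cells. Of the 8 interferon genes tested, 1 was called, Ifnab, at 0.85 higher in P4 than in MEC, and none was called between P5 and MEC.

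Markers of other cell types differed between MEC and the sorted populations in the same comparisons. The summed Cy5 level of 25 leukocyte markers was 23048 in het P4, 12724 in WT P4, 20196 in het P5, 15563 in WT P5, 30527 in het MEC and 39201 in WT MEC. Of those 25, 6 were lower and 1 was higher in P4 than in MEC, and 5 were lower and none higher in P5 than in MEC. The median difference of the leukocyte markers from MEC was 0.02 in P4 and -0.34 in P5. Cd14, the one farthest below MEC in P4 (-3.37), is also on the list of luminal markers. The summed level of 14 endothelial markers was 6570 to 9752 in the sorted samples, 54959 in het MEC and 56107 in WT MEC, and 12 of the 14 were lower in P4 and 13 in P5. Fibroblast markers summed to 144111 in het P4, 128034 in WT P4, 28942 in het P5, 14324 in WT P5, 243521 in het MEC and 468239 in WT MEC. Of these 14 markers, 9 were lower in P4 than in MEC and 13 in P5, with median differences of -2.06 and -3.86. Adipocyte markers summed to 47459 in het P4, 25454 in WT P4, 24451 in het P5, 8878 in WT P5, 205456 in het MEC and 205189 in WT MEC, and 5 of 10 were lower in P4 and 7 in P5. At least 22 of 25 leukocyte and 13 of 14 endothelial markers, and every fibroblast and adipocyte marker, were well above background in Cy5 on each array. Over all probes that share was 74.3% to 89.8% per array. Of the epithelial markers, 11 of 13 luminal ones were lower in P4 than in MEC, and 8 of 12 basal ones were lower in P5 than in MEC. Their part in the members' differences was not tested. In these bulk samples, fewer cells of a type and less RNA per cell cannot be told apart.

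The number of calls against MEC moved with the scaling, while every called member was lower than MEC under each of the 10 other ways of processing the 6 arrays. When arrays were centred on the median with no loess, the median of all genes moved to -0.45 for P4 and -0.40 for P5 against MEC, and 66.4% and 57.9% of all genes were called. In P4, 16.8% of all genes were then higher and 49.6% lower (9.48% and 8.46% with loess), and in P5 11.4% and 46.5% (2.08% and 4.25% with loess). The members' medians were -2.14 and -1.38 in that setting, below those shifts of all genes. With local backgrounds as given, 12 members were called in P4 against MEC, at 7.03% of all genes. Eif2ak2, Gbp4, Ifit1, Igtp, Oas1a, Oasl1, Stat2 and Tap1 were not called there, with Tap1 at -0.48 (limma adjusted p = 0.222), and Mx2 was called at -1.05. Without het P4 or WT P4 there was no call, and without het MEC 18 members were called between P5 and MEC.

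The comparison of het with WT sets the ΔNp63 heterozygotes against mice with both copies. Over the 3 populations together, no member was called, and neither was any other gene (0% of all genes). At an unadjusted p below 0.05, limma counted 4 members and 3622 genes. The members' median difference was 0.01, against 0.05 over all genes. The members farthest apart were Ifi202b (-2.18 ± 0.76, limma adjusted p = 0.314), Gbp2b (-1.66 ± 0.42, limma adjusted p = 0.282) and Psmb9 (0.47 ± 0.21, limma adjusted p = 0.391). Ifi202b and Gbp2b were lower on the het array in 3 of 3 populations. So was Eif2ak2 (-0.12 in P4, -0.17 in P5 and -0.41 in MEC), while Gbp2 and Oasl1 were higher in each. The share of all genes with 1 direction in all 3 populations was not counted.

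Ifi202b belongs to a cluster of closely similar genes on chromosome 1 whose proteins bind DNA, so the probe may also report a near-identical copy. Its log2 ratio was -2.07 in het P4, -0.54 in WT P4, -4.34 in het P5, 0.18 in WT P5, -2.98 in het MEC and -2.50 in WT MEC. The het array was the lower of each pair, and het P5 was the lowest array of all. The mean Cy5 signal before any correction was 900 in het P4 and 4152 in WT P4, 248 in het P5 and 10858 in WT P5, and 977 in het MEC and 2144 in WT MEC. The differences of het from WT were -1.53 in P4, -4.52 in P5 and -0.49 in MEC, with no test since each is 1 array against 1. Over 11 ways of processing the 6 arrays they ranged from -2.16 to -1.42 in P4, from -5.03 to -4.51 in P5 and from -0.84 to -0.49 in MEC.

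Gbp2b, a guanylate-binding protein on chromosome 3 that the array names Gbp1, had -0.76 in het P4, 0.27 in WT P4, -1.01 in het P5, -0.01 in WT P5, -0.67 in het MEC and 2.29 in WT MEC. The 3 het arrays lay together below all 3 WT arrays, and WT MEC was the highest. Its Cy5 signal before correction was 94 in het MEC and 1337 in WT MEC. The differences were -1.03 in P4, just short of 2-fold in P5, and -2.96 in MEC, and over the 11 ways of processing they ranged from -1.90 to -0.75 in P4, from -2.62 to -0.82 in P5 and from -3.88 to -2.39 in MEC. Gbp2 and Gbp3, which lie on the same chromosome, did not share this pattern: Gbp2 was higher on the het array by 0.45 in P4, 0.55 in P5 and 0.20 in MEC, a direction kept in 10, 11 and 10 of the 11 ways of processing, and Gbp3 differed by -0.06 in P4, 0.82 in P5 and -0.91 in MEC.

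**Figure D3:**
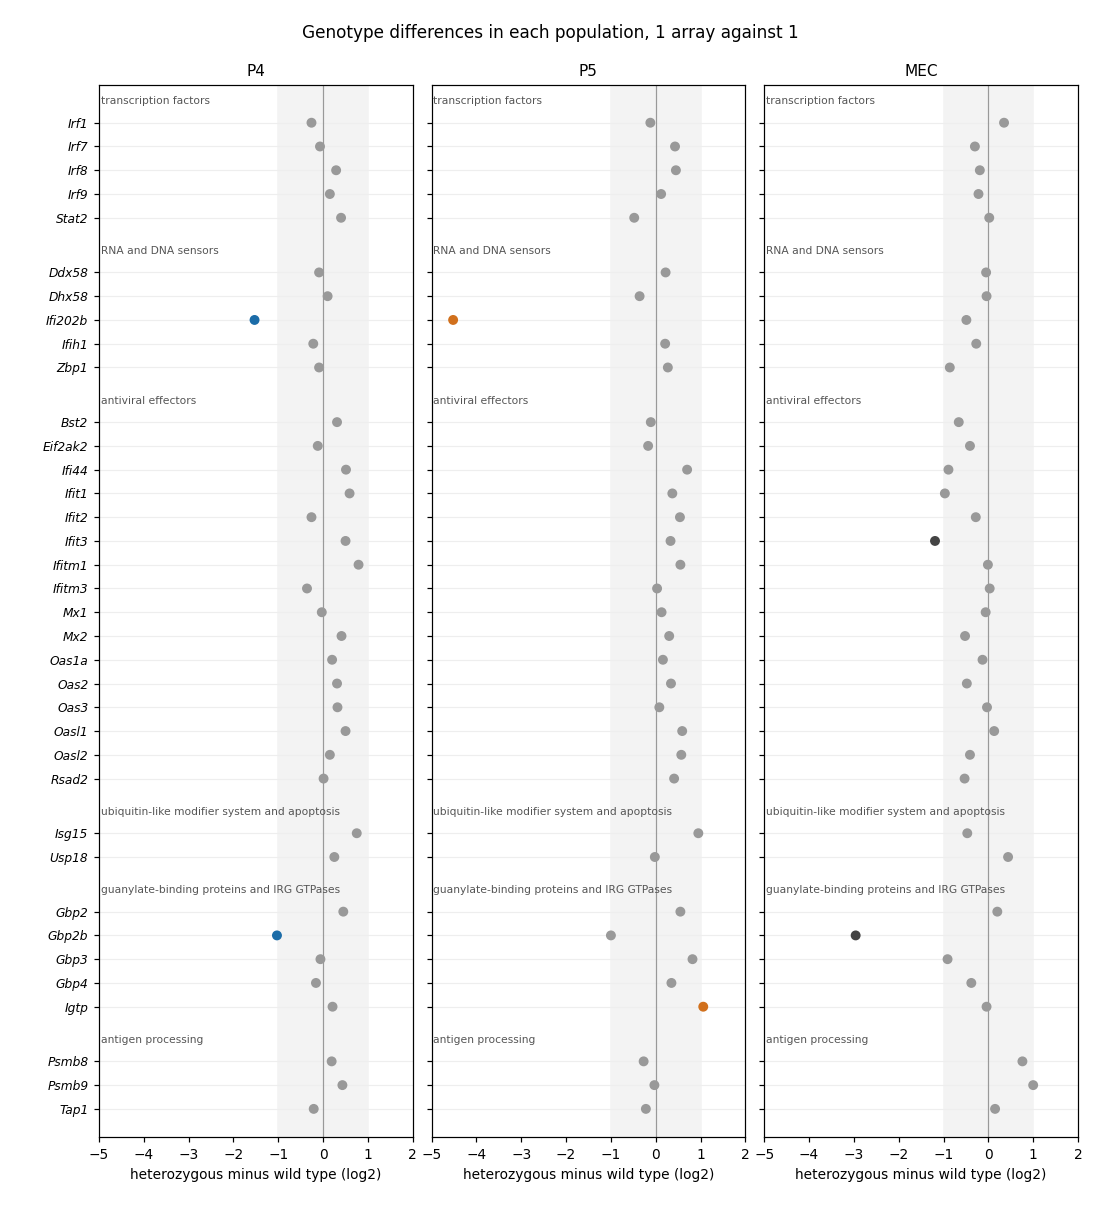
Het minus WT log2 difference (x axes) for each member in P4, P5 and MEC, 1 array against 1, with the grey band marking less than 2-fold and coloured points at least 2-fold. Ifi202b lies at -1.53 in P4 and -4.52 in P5 and Gbp2b at -2.96 in MEC, and most other members lie within the band.

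In P4, 2 of the 36 members were at least 2-fold apart between genotypes, Ifi202b and Gbp2b, both lower in het, against 4.04% of all genes in either direction, 3.56% higher and 0.482% lower. Next was Ifitm1, a relative of Ifitm3, with 1.39 in het P4 and 0.60 in WT P4, 0.98 in het P5 and 0.43 in WT P5, and 0.92 on both MEC arrays. The members' median was 0.17 and that of all genes 0.08, but the members' median was below 0 in 5 of the 10 other ways of processing, with a lowest value of -0.21. In P5, 2 members were at least 2-fold apart, Ifi202b lower and Igtp higher by 1.06, against 3.20% of all genes in either direction, 2.27% higher and 0.924% lower. The median was 0.24 for the members and 0.08 for all genes, and with median centring it was -0.03. In MEC, 2 members were at least 2-fold apart, Gbp2b and Ifit3, both lower in het, against 2.25% of all genes in either direction, 1.19% higher and 1.07% lower. Just short of 2-fold lay Psmb9, higher in het, and Ifit1 at -0.97. Here the median was -0.25 for the members and 0.01 for all genes, and it stayed between -0.36 and -0.11 under the 10 other settings.

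Ifit3, a partner of Ifit1 in binding RNA, had -0.52 in het P4, -1.03 in WT P4, -0.99 in het P5, -1.31 in WT P5, 0.23 in het MEC and 1.42 in WT MEC. Its Cy5 signal before correction was 616 in het MEC and 2317 in WT MEC, the widest gap of its pairs. Het minus WT was -1.19 in MEC, 0.50 in P4 and 0.33 in P5. On the dimmer Ifit3 probe, well above background on 3 arrays, it was -0.85 in MEC, -0.12 in P4 and 0.09 in P5. In MEC, 27 of 36 members were lower in het (21 to 31 over the ways of processing), Zbp1 (-0.86), Ifi44 (-0.89) and Bst2 (-0.66) among them, whereas the immunoproteasome genes Psmb8 (0.76) and Psmb9 were higher. Over all genes in MEC, 51% were higher in het. In P5, 25 of 36 members were higher in het (17 to 25 over the ways of processing), with Isg15 at 0.95 and Gbp3 at 0.82 after Igtp, while 60.7% of all genes were higher in het P5.

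Related genes at least 2-fold apart were few. In MEC, Ifi27l2a, an interferon-induced membrane protein, was lower in het (-2.21), and Tap2 (1.40) and H2-D1 (1.08), an MHC class I heavy chain, were higher. In P5, Cxcl10 was higher in het (1.33), and in P4 Pml (1.28), Nod1 (1.04) and Tlr9 (1.02) were higher. Summed levels of marker lists also differed within the MEC pair. Luminal markers summed to 845910 in het MEC and 490982 in WT MEC, fibroblast markers to 243521 in het MEC and 468239 in WT MEC, and leukocyte markers to 30527 in het MEC and 39201 in WT MEC. Their part in the genotype differences was not tested.

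Fitting the 4 sorted arrays alone, which lie on 1 slide, called 5 of the 36 members between het and WT, against 7.73% of all genes. This fit has fewer residual degrees of freedom than that of 6 arrays, so its standard errors lean on the spread pooled over all genes. They do not measure the spread of a member's own differences: Ifi202b was at -1.53 in P4 and -4.52 in P5. Gbp2b (-1.01 ± 0.15, limma adjusted p = 0.00353) and Ifi202b (-3.02 ± 0.51, limma adjusted p = 0.00645) were lower in het. Isg15 (0.85 ± 0.15, limma adjusted p = 0.00995), Ifitm1 (0.67 ± 0.16, limma adjusted p = 0.0309) and Ifi44 (0.61 ± 0.15, limma adjusted p = 0.0441) were higher in het. With local backgrounds as given, the Ifi44 difference was -0.59 in P4 and 0.52 in P5, so its direction in P4 turned with the background. With those backgrounds Isg15 was at 0.49 in P4 and 0.86 in P5, and Ifitm1 at 0.97 in P4 and 0.59 in P5. The dimmer Ifi44 probe, well above background on 4 arrays, gave -0.14 in P4 and 0.14 in P5 in the main setting. The summed leukocyte, fibroblast and adipocyte markers given above were also higher in het than in WT in P4 and in P5. In P5, 6 of 14 fibroblast markers, 2 of 10 adipocyte markers and 1 of 25 leukocyte markers were at least 2-fold higher in het, and in P4 none of 14, 1 of 10 and 4 of 25. Of these lists, only the adipocyte marker Cfd was at least 2-fold lower, at -1.41 in P4. Over all genes, 2.27% were at least 2-fold higher and 0.924% lower in P5, and 3.56% and 0.482% in P4. The part of these markers in the members' differences was not tested. Whether the genotype difference itself changes between populations could not be tested, since no array remains to measure the error of that difference.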

How the data were processed

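Per the labels and file headers, 6 Agilent 2-colour arrays carried sample RNA in Cy5 and reference RNA in Cy3, with no dye swap. The authors deposited scanner output of Agilent Feature Extraction 9.5.3.1, per the submitters' processing notes. The deposited intensity values are raw means of spots and medians of local backgrounds, per the file headers. The deposited log10 ratio was background-subtracted and dye-normalized by that software, per the file headers. The deposited series table holds log2 ratios that followed the scanner log ratios (r of 0.988 to 1.000 across probes). From intensities, local backgrounds more than 5 MADs from an array's median were replaced by it, followed by normexp with an offset of 50, which shrinks differences of dim probes, and loess within arrays (R 4.3.3, limma 3.58.1). Backgrounds as given were the plan, but up to 40 outlying spots set the normexp fit there, so the replacement was chosen after that was seen. Probes well above background on fewer than 2 arrays were left out. Genes took their brightest probe, named by RefSeq accession, symbol or synonym. The linear model held population and genotype; genotype within a population is 1 array against 1, described at 2-fold. The fit was tested on simulated data. The members and lists were chosen with earlier results of these data known. Values on all arrays are given for members that were called or at least 2-fold apart, and for the 3 farthest where fewer were. Alternatives changed background correction, normalization, channel, filter, probe rule and arrays. A change of filter leaves the log ratios of a gene as they were, and the deposited values follow the scanner log ratios, so the alternatives overlap.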

Additional observations from a re-analysis of the deposited data

Results flagged for a closer look

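For 8 members the het minus WT difference had opposite signs in a sorted population and in MEC. Both differences were over 0.40, which is 3 times the spread that copies of a probe within arrays give a difference. That spread leaves out labelling, hybridisation, slide and animal. How many of all genes meet this rule was not counted, so the 8 cannot be read as setting the members apart from other genes. Over all genes, 60.8% were higher in het P4, 60.7% in het P5 and 51% in het MEC. The difference between populations was not tested, since each genotype had 1 array per population. Gbp3, a guanylate-binding protein, was 0.82 higher in het P5 and 0.91 lower (-0.91) in het MEC, a gap of 1.73. Ifit3 was 0.50 higher in het P4 and at -1.19 in MEC, a gap of 1.69. Its dimmer probe gave -0.12 in P4 and -0.85 in MEC, so the signs were not opposite there. Ifi44 had 0.70 in P5 and -0.89 in MEC, a gap of 1.59. Its dimmer probe gave 0.14 in P5 and -0.21 in MEC, both short of 0.40. Ifit1 had 0.59 in P4 and -0.97 in MEC, a gap of 1.57. Isg15 had 0.95 in P5 and -0.47 in MEC, a gap of 1.42. The gaps were smaller for Oasl2 (0.98, P5 and MEC), Mx2 (0.94, P4 and MEC) and Rsad2 (0.94, P5 and MEC). On the 2 dimmer Rsad2 probes the signs were opposite too, at 0.49 and 0.05 in P5 and at -0.10 and -0.64 in MEC. The opposite signs held in all 11 ways of processing for Gbp3, Ifit3, Ifi44, Isg15, Oasl2 and Rsad2. They held in 10 of 11 for Ifit1 and Mx2, where the P4 difference fell below 0 with local backgrounds as given. The 11 include the main setting, in which these members were picked. Settings that change only the filter on dim probes repeat its log ratios, so the 11 are not independent checks. P4 and P5 lay on slide 1 and MEC on slide 2, and het was at the later position on both.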

How the results depend on the processing

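The population term pairs het with WT, so the fit of genotype over 3 pairs is itself the paired analysis and no other was run. Replacing outlying backgrounds was chosen after the data were seen, and with backgrounds as given P4 against MEC called 12 members (main 20) and het against WT in P4 put 1 member at least 2-fold apart. Median centring called 15 members for P4 against P5 (main 9), 32 for P4 against MEC and 31 for P5 against MEC (main 8), and put 1 member in P5 and 6 in MEC at least 2-fold apart between genotypes. With it, 4.64% of all genes were called higher and 14.8% lower in P4 than in P5 (7.55% and 7.46% with loess), and the share of all genes at least 2-fold higher and lower in het was 1.33% and 1.95% in P4, 0.803% and 2.28% in P5, and 0.916% and 2.27% in MEC (3.56% and 0.482%, 2.27% and 0.924%, and 1.19% and 1.07% with loess). Cy5 alone called 14 members for P4 against P5 and put 1 at 2-fold between genotypes in P4. At 2-fold between genotypes, normexp offset 0 gave 4 members in P5 and 5 in MEC, no background subtraction 4 in MEC, and the scanner log ratio and the deposited values 5 members each in MEC. Leaving out each array in turn gave 0 to 17 members for P4 against P5, 0 to 28 for P4 against MEC, 0 to 18 for P5 against MEC and 0 to 5 for het against WT. The P4 and P5 arrays alone gave 17 for P4 against P5 and 5 for genotype, which leaving out either MEC array repeats by construction, since a lone MEC array is fitted exactly. No member called in the fit of all 6 arrays changed direction under these alternatives. Ifi44, called for genotype on the sorted arrays alone, ran from -0.39 to 0.11 over the ways of processing the 6 arrays, and Isg15 from -0.01 to 0.42. The cause of these shifts was not tested. Dim members such as Ifit1, with 97 units of Cy5 in WT P4, are limited by signal over background.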
